A study of Linum usitatissimum with 11 samples.

Results

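Of 43408 flax gene model probes measured in inner stem tissue, 223 were strongly lowered in plants of the lbf1 mutant family relative to the wild type (wt), and these 223 lowered transcripts are described here. They were chosen on the authors' deposited log2 values. Each had a value on all 11 arrays, a mean over lbf1 plants at least 2 log2 (4-fold) below the mean over wt plants, and its highest lbf1 plant below its lowest wt plant. A value on all arrays was present for 20497 gene model probes, and the 223 are 1.09% of them. The same rule turned round selected 283 raised transcripts, 1.38% of the 20497. Because the difference between lbf1 and wt chose the members, it is given below as a description with no test.

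The 6 lbf1 plants and 3 wt plants were flax (Linum usitatissimum) of the cultivar Diane, field-grown and sampled at the vegetative stage. The lbf1 plants belong to a family obtained by chemical mutagenesis with EMS, so other induced mutations may be carried along, and the labels state neither the generation nor the mutated gene. The titles of lbf1 plants 5 and 6 read lbf, while their genotype label is the same as that of plants 1 to 4. RNA came from what was left of the stem after peeling, and lbf1 plant 1 and wt plant 3 were each hybridised to 2 arrays, which were averaged. Replicates are plants.

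Flax stems carry bast fibres in their outer tissues, and these fibres have thick cellulose-rich walls that normally hold little lignin. The name lbf1 refers to bast fibres that lignify. Peeling removes the outer tissues, and the inner stem that remains is dominated by xylem, whose walls are lignified in the normal course of development. The comparison therefore asks which transcripts differ in a tissue other than the one after which the mutant is named. Identifiers stand alone in the tables, without gene names or probe sequences. No member is therefore given a function or a sequence, and the labelled tissue was not checked against marker genes. In bulk tissue, fewer cells of a type and less RNA per cell cannot be told apart.

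Over the lowered transcripts, wt plants 1 and 2 differed from each other about as little as the repeat arrays of lbf1 plant 1. Levels from here on were recomputed from the scanner tables and are log2 of background-corrected, quantile-normalized brightness. Over the 223 lowered transcripts, the median absolute difference between wt plants 1 and 2 was 0.0698 log2. The repeat arrays of lbf1 plant 1 differed by 0.0673 log2 and those of wt plant 3 by 0.386 log2. Pairs of lbf1 plants differed by 0.315 to 0.720 log2. Wt plant 3 differed from wt plants 1 and 2 by 0.383 and 0.354 log2. These values use the mean of its 2 arrays, so they are not like for like with the difference between its single arrays. Over the 20497 probes the difference of wt plants 1 and 2 was 0.0887 log2, against 0.123 to 0.296 log2 for the lbf1 pairs. There it was larger than the 0.0632 log2 between the repeat arrays of lbf1 plant 1. It was smaller than the 0.226 log2 between those of wt plant 3. The labels give wt 1 and wt 2 as separate plants and they are counted so here. Counted as 1 plant, the rule selected 235 probes, 211 of them among the 223. Wt plants 1 and 2 and lbf1 plant 1 shared a slide, wt plant 3 lay on another, lbf1 plants 2 to 5 on another and lbf1 plant 6 on another.

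**Figure D1:**
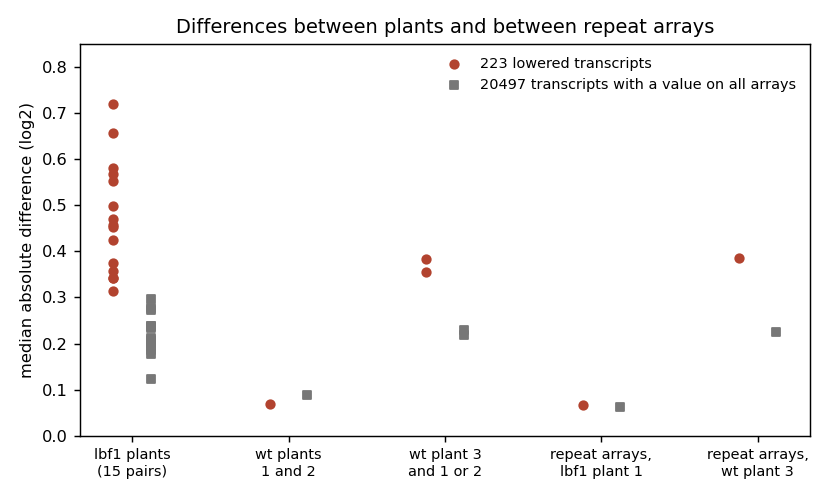
Median absolute log2 difference for each pair of plants of a genotype and for each pair of repeat arrays, over the 223 lowered transcripts (circles) and over the 20497 transcripts with a value on all arrays (squares). Wt plants 1 and 2 lie at 0.0698 log2 for the lowered transcripts, beside 0.0673 log2 for the repeat arrays of lbf1 plant 1, while the 15 lbf1 pairs lie between 0.315 and 0.720 log2.

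The lowered transcripts stood well below wt in all 6 lbf1 plants. On the recomputed values the median difference, lbf1 minus wt, was -2.28 log2, which is 4.87-fold lower in lbf1. The members' mean level had a median of 8.66 log2 in lbf1 and 11.2 log2 in wt. In wt the middle member was brighter than 91.0% of all 43455 probes, and in lbf1 brighter than 65.3% of them. Brightness of different probes is not a measure of relative abundance, since probes differ in how strongly they bind. Above the 90th percentile of probe brightness lay 28 members in lbf1 and 123 in wt. In the summed net signal of all probes, the members made up 0.660% ± 0.131 in lbf1 (SD, n = 6) and 3.04% ± 0.169 in wt (SD, n = 3). Their share lay between 0.483% and 0.770% in the lbf1 plants and between 2.84% and 3.16% in the wt plants. The groups did not overlap in this share, which the choice of members favours.

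**Figure D2:**
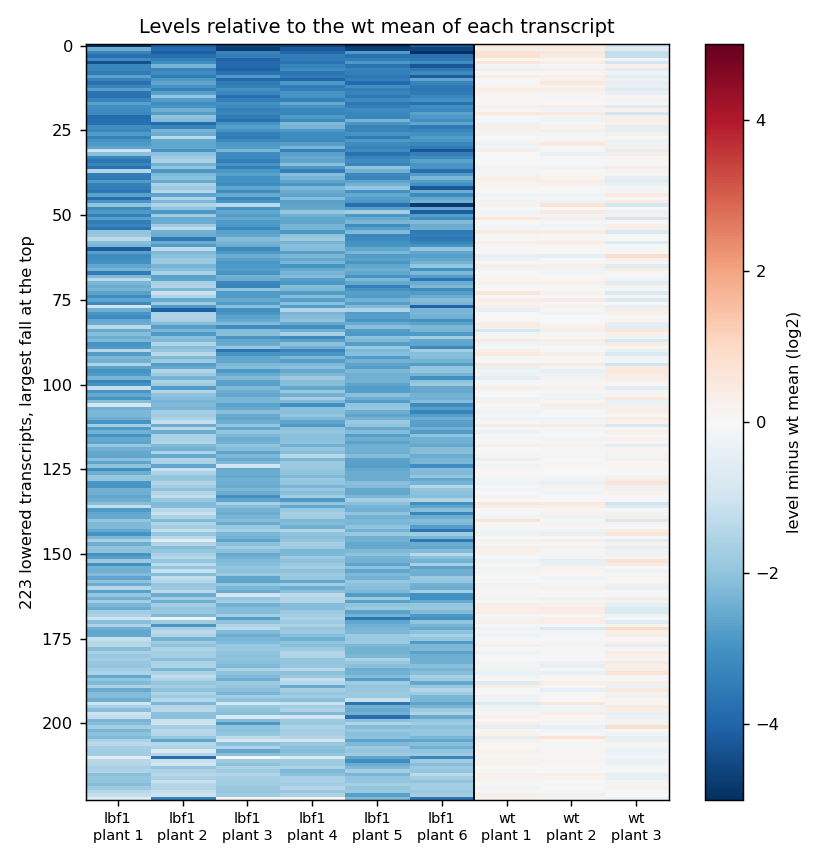
Level of each of the 223 lowered transcripts (rows, ordered by size of fall) in each plant (columns), as log2 difference from the transcript's wt mean. The 6 lbf1 columns are blue almost throughout and the 3 wt columns are near white. The colour scale ends at 5 log2, so the few larger falls are drawn at its end.

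Most falls were of 4- to 8-fold, and few were much larger. The recomputed difference ran from -5.18 to -1.60 log2, with quartiles at -2.62 and -2.08 log2. It was at or below -2 log2 for 177 members, at or below -3 log2 for 25 and at or below -4 log2 for 2. For the other 46 members the difference was smaller than 2 log2 on this scale. On the authors' values the median difference of the members was -2.42 log2. The raised transcripts reached further, with recomputed differences of up to 5.95 log2, although their median of 2.14 log2 was of similar size.

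**Figure D3:**
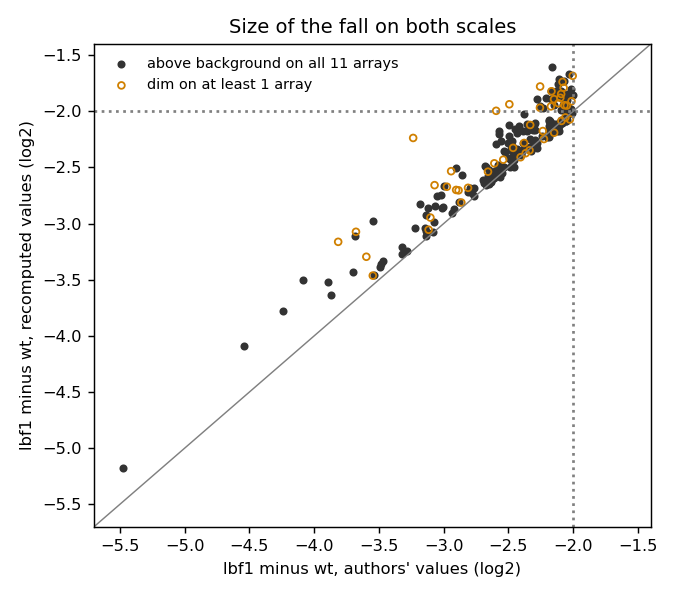
Difference lbf1 minus wt (log2) of each lowered transcript on the authors' values (horizontal) and on the recomputed values (vertical), with the line of equality and dotted lines at -2 log2. For 196 members the fall was smaller after recomputation (above the line of equality), and 46 lie above -2 log2 there. Open circles mark the 45 members that were dim on at least 1 array.

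Every lbf1 plant lay below every wt plant for 221 of the 223 members on the recomputed values, where this held for 16.3% of all 28267 probes tested. Both size and separation held for 177 members, and for 0.899% of the probes tested. In limma's fit over all tested probes, 221 members were called lower in lbf1 (Benjamini-Hochberg adjusted p under 0.05), beside 15.5% of all tested probes. The rule used this contrast, so nothing is read from these counts. The space between the highest lbf1 plant and the lowest wt plant had a median of 1.39 log2 over the members and exceeded 1 log2 for 185 of them. It was widest at 3.17 log2. The members that overlapped after recomputation were Lus10006620 and Lus10039378, named here because they were the only exceptions, and they were also the members without a limma call.

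On any single array nearly all members were above background, but 45 fell below it on at least 1 array. A probe was above background when its net signal exceeded 2.6 SDs of the local background. This held on all 11 arrays for 178 members, on all 7 lbf1 arrays for 182 and on all 4 wt arrays for 215. Between 213 and 223 members were above background on each lbf1 array and between 220 and 223 on each wt array. No member was above background on fewer than 5 lbf1 arrays. Transcripts without a value on some array could not become members, and the authors' table has no value for a spot that the scanner software flagged. Among the gene model probes without a value on all arrays, 60 met the size and separation limits on the recomputed values and were above background on all wt arrays. Of these, 14 had no value on any lbf1 array. Their median difference was -2.41 log2 and the lowest -4.89 log2, so the 223 are not all of the strongly lowered transcripts.

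The greatest fall was that of Lus10038721. Its level was 8.26, 10.17, 9.67, 9.78, 6.74 and 10.10 log2 in lbf1 plants 1 to 6, against 14.75, 14.80 and 13.33 log2 in wt plants 1 to 3. The groups were far apart, and plant 5 was the lowest of the lbf1 plants while wt plant 3 was the lowest of the wt. In net brightness the array of lbf1 plant 5 read 78 units, the other lbf1 arrays 280 to 1190 units and the wt arrays 6783 to 27272 units. The difference was -5.18 log2 with a standard error of 0.738, or 36.1-fold. Its size was uncertain, at -6.52 log2 within the slide that held both genotypes, -4.04 log2 without that slide and -2.19 log2 with array brightness in the fit.

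Lus10002073 had the next greatest fall among members measured on every array. Its level was 9.04 log2 in lbf1 plant 1 and 7.63, 6.83, 7.32, 6.87 and 6.94 log2 in lbf1 plants 2 to 6, against 11.85, 11.82 and 10.91 log2 in wt plants 1 to 3. Lbf1 plant 1 stood apart from the other lbf1 plants, and its 2 arrays read alike at 8.91 and 9.18 log2. The difference was -4.09 log2 with a standard error of 0.466, and within the slide shared by wt plants 1 and 2 and lbf1 plant 1 it was -2.79 log2.

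Lus10034238 came after these. Its level was 8.57, 7.82, 8.61, 7.97, 9.07 and 6.66 log2 in lbf1 plants 1 to 6, against 12.53, 12.46 and 10.70 log2 in wt plants 1 to 3. The wt value of plant 3 is the mean of 10.08 log2 on its first array and 11.32 log2 on its second. Repeat arrays of the same plant thus differed there by more than 1 log2. The difference was -3.78 log2 with a standard error of 0.547. It was -4.38 log2 without wt plant 3, -2.67 log2 without the slide that held both genotypes and -5.34 log2 with array brightness in the fit.

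**Figure D4:**
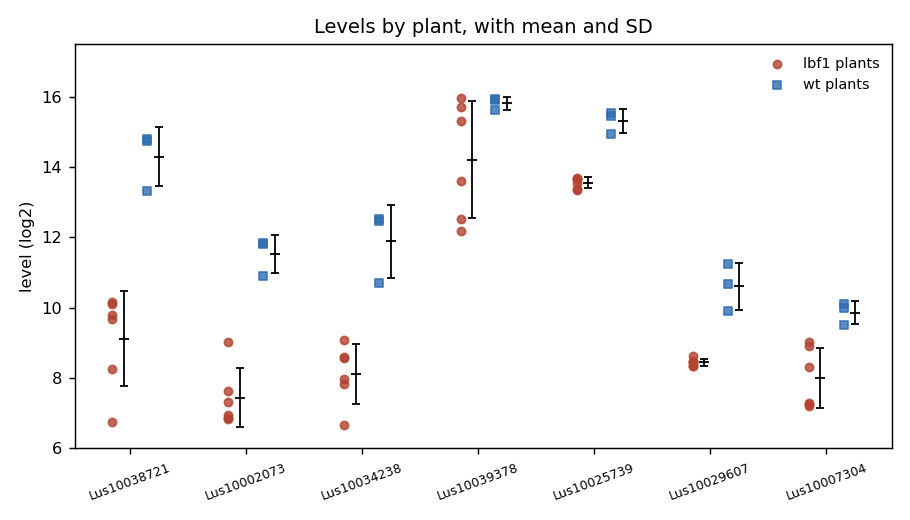
Level (log2) of 7 lowered transcripts in each lbf1 plant (circles) and each wt plant (squares), with the mean and SD of each genotype beside the points. From left, the first 3 are the greatest falls, the next pair had the brightest probes in wt, and the last pair had the smallest spread between lbf1 plants and the fall nearest to the size limit. Among these 7, lbf1 and wt plants overlap for Lus10039378 alone.

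The brightest probes among the members in wt were those of Lus10039378 and Lus10025739, and they behaved differently among the lbf1 plants. Lus10039378 was at 15.30, 15.95 and 15.71 log2 in lbf1 plants 1, 3 and 4 and at 12.52, 13.61 and 12.17 log2 in lbf1 plants 2, 5 and 6, against 15.93, 15.90 and 15.61 log2 in wt plants 1 to 3. It was thus near the wt level in some lbf1 plants and well below it in the others, and its SD of 1.66 log2 between lbf1 plants was the largest of any member. Its spot was saturated on 1 of 7 lbf1 arrays and on 2 of 4 wt arrays, so its difference of -1.60 log2 has an uncertain size, and it was -3.92 log2 with array brightness in the fit. Lus10025739 was at 13.35, 13.67, 13.65, 13.70, 13.38 and 13.56 log2 in lbf1 plants 1 to 6, against 15.54, 15.46 and 14.93 log2 in wt plants 1 to 3. All its lbf1 plants lay within a narrow band, with an SD of 0.155 log2, and its difference was -1.76 log2. The size of that difference moved with the scaling, to -2.25 log2 with the 75th percentile and -1.48 log2 with spike-in probes. It was -2.16 log2 within the slide that held both genotypes and -1.34 log2 without that slide.

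The smallest spread between lbf1 plants was that of Lus10029607. Its level was 8.64, 8.42, 8.45, 8.34, 8.35 and 8.48 log2 in lbf1 plants 1 to 6, against 11.23, 10.68 and 9.91 log2 in wt plants 1 to 3. Here the wt plants were spread more widely than the lbf1 plants, with SDs of 0.109 log2 in lbf1 (n = 6) and 0.667 log2 in wt (n = 3). The repeat arrays of lbf1 plant 1 read 8.44 and 8.84 log2, farther apart than any of the lbf1 plants were. The difference was -2.16 log2. It was -2.51 log2 without wt plant 3, -1.85 log2 without wt plant 1, -1.4995 log2 without the slide that held both genotypes and -1.42 log2 after scaling to spike-in probes.

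At the size limit the choice of members was continuous with its surroundings. The member nearest to the limit, Lus10007304, had an authors' difference of -2.002 log2, and Lus10004203, just outside, had -1.996 log2. On the authors' values 40 members lay within 0.1 log2 of the limit, and 46 separated probes lay within 0.1 log2 on the other side of it. Lus10000753 and Lus10008564 passed the size limit at -2.17 and -2.27 log2 but had an lbf1 plant above a wt plant, and they are named as the only probes that failed on separation alone. Recomputed, Lus10007304 was at 8.32, 9.03 and 8.92 log2 in lbf1 plants 1, 3 and 4 and at 7.28, 7.22 and 7.27 log2 in lbf1 plants 2, 5 and 6, against 10.10, 9.99 and 9.50 log2 in wt plants 1 to 3.

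That division of the lbf1 plants recurred in a small number of members. In 5 of them, lbf1 plants 1, 3 and 4 all stood more than 1 log2 above lbf1 plants 2, 5 and 6. They were Lus10039378, Lus10006620, Lus10028922, Lus10014588 and Lus10007304, and the pattern was singled out after these values were seen. Lus10006620 was at 14.43, 14.92 and 14.30 log2 in lbf1 plants 1, 3 and 4 and at 11.16, 12.38 and 11.76 log2 in lbf1 plants 2, 5 and 6, against 15.05, 15.05 and 14.83 log2 in wt plants 1 to 3. Lus10014588 was at 9.63 to 10.45 log2 in lbf1 plants 1, 3 and 4 and at 8.27, 8.63 and 8.23 log2 in lbf1 plants 2, 5 and 6, against 11.76, 11.89 and 11.79 log2 in wt plants 1 to 3. No member had the opposite arrangement by more than 1 log2. Among all 20497 probes 39 had the first arrangement and 29 the opposite one, and among the 283 raised transcripts 5 and 7. The division does not follow the slides or the titles, since plants 2 and 5 shared a slide with plants 3 and 4, and only plants 5 and 6 carry the shorter title.

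The lowered transcripts varied more between lbf1 plants than probes in general. The median SD between lbf1 plants was 0.457 log2 for the members (n = 6 plants), 0.475 log2 for the raised transcripts and 0.217 log2 for the 20497 probes. Between wt plants the median SD was 0.235 log2 for the members, 0.237 log2 for the raised transcripts and 0.156 log2 for the 20497 probes (n = 3 plants). The wt values include wt plants 1 and 2, which over the members differed about as little as the repeat arrays of lbf1 plant 1. Across members the SD between lbf1 plants ran from 0.109 to 1.66 log2 with quartiles at 0.324 and 0.597 log2, and it exceeded 1 log2 for 10 members.

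By the median over members, lbf1 plant 2 lay nearest to wt. The median of the members relative to the lbf1 mean was -0.09, 0.37, -0.14, 0.14, -0.19 and -0.12 log2 in lbf1 plants 1 to 6. Plant 2 was the highest lbf1 plant for 114 members (51.1%) and the lowest for 5, where among the 20497 probes it was the highest for 18.6%. Relative to the wt mean its median was -1.92 log2, and that of the other lbf1 plants lay between -2.46 and -2.16 log2. By share of summed net signal plant 2 was not the highest, at 0.731% against 0.770% in plant 4 and 0.754% in plant 3. For the raised transcripts plant 6, not plant 2, was the nearest to wt, at 1.99 log2 above the wt mean against 2.12 log2 for plant 2. The array of plant 2 was also the dimmest of the lbf1 arrays, with an upper-quartile net signal of 650 units against 746 to 920 units for the others, and the part of brightness in its higher values was not tested. After scaling to spike-in probes its median relative to the lbf1 mean was 0.06 log2, and that was still the highest median of the lbf1 plants.

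**Figure D5:**
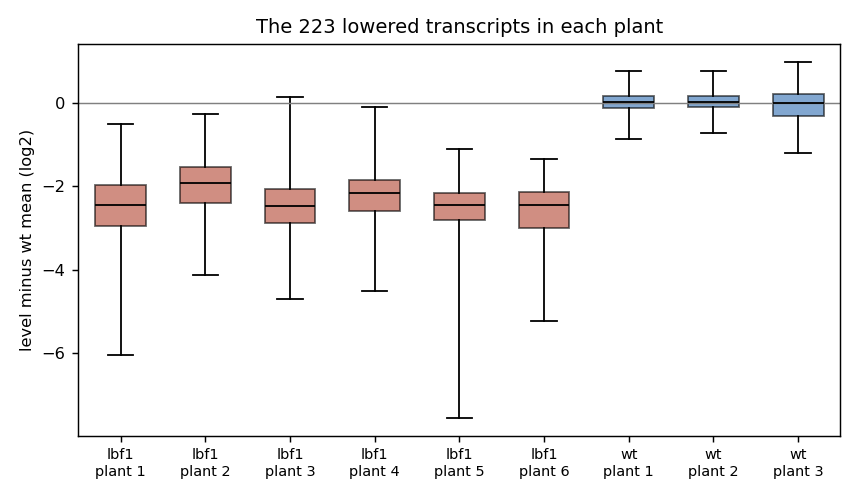
Level of the 223 lowered transcripts minus each transcript's wt mean (log2) in each plant. Boxes span the quartiles with a line at the median, and whiskers reach the lowest and highest member. Medians of the lbf1 plants lie between -2.46 and -1.92 log2, with plant 2 the highest.

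The members, like probes in general, did not vary as a single block among the lbf1 plants. The first principal component of the members' levels over the 6 lbf1 plants held 42.6% of the variance and the second 26.6%. For the raised transcripts these shares were 55.7% and 22.5%, and for the 20497 probes 43.8% and 18.2%. On the first component plant 2 (weight 0.67) and plant 6 (0.32) lay opposite plant 1 (-0.55) and plant 3 (-0.39). For the 149 members with a positive score, the median in plant 2 was 0.61 log2 above the lbf1 mean and that in plant 1 was -0.30 log2. For the 74 members with a negative score, plant 1 was 0.31 log2 above it and plant 6 was -0.44 log2. The scores were computed from these same plant levels, so the split itself favours these directions and nothing is read from them. Both groups had similar overall falls, with median differences of -2.32 and -2.27 log2. Wt plant 3 minus the mean of wt plants 1 and 2 had a median of 0.07 log2 over the 149 members and -0.32 log2 over the 74. This rests on 1 wt plant, whose repeat arrays differed by a median of 0.386 log2 over all members, so little is read from it.

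Among the wt plants, plant 3 was most often the lowest, for 103 of the 223 members. It was also the lowest for 9666 of the 20497 probes, a similar share, so this is not particular to the members. Wt plants 1 and 2 were within 0.5 log2 of each other for 211 members. Wt plant 3 lay at least 0.5 log2 below them for 53 members and at least 0.5 log2 above them for 31, with extremes of -1.80 and 1.48 log2. The median over members was -0.02 log2, with members on both sides, and the value of plant 3 averages arrays between which the members moved by a median of -0.24 log2. The members with a low plant 3 had a median difference between genotypes of -2.48 log2, and those with plant 3 within 0.5 log2 of the others -2.26 log2.

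Arrays of the genotypes differed in brightness, with upper-quartile net signals of 650 to 920 units on lbf1 arrays and 317 to 732.5 units on wt arrays, all scanned at the same photomultiplier gain of 450. The share of probes above background was 62.2% to 64.7% on lbf1 arrays and 54.7% to 61.2% on wt arrays. The repeat arrays of wt plant 3 differ in brightness within the same plant. Their log2 spike-in signal also differed, at 10.19 on the first array and 9.74 on the second. From its first array (317 units) to its second (732.5 units) the members moved by a median of -0.24 log2, the raised transcripts by -0.22 log2 and the 20497 probes by -0.02 log2. In 1 pair of arrays the wt side was the brighter, namely lbf1 plant 2 (650 units) against the second array of wt plant 3 (732.5 units). There the members' median difference was -1.73 log2. The rule used these same arrays and required each lbf1 plant to lie below each wt plant, so the direction was fixed by the choice of members, and the value bears on the size alone. When array brightness entered the fit next to genotype, the median difference of the members was -1.79 log2, and 1 of the 223 was no longer below 0. In that fit 10 members were called lower, beside 29 of all 28267 tested probes. The rule used the contrast of genotypes, so nothing is read from this count. Brightness and genotype had a correlation of 0.909 over the plants.

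The size of the members' falls moved with the scaling, while their direction was fixed by the rule and is no sign of stability. Scaling to spike-in probes moved the median change of all tested probes to 0.67 log2, where it was 0.02 log2 after quantile normalization. The members' median difference was then -1.62 log2, which is -2.29 log2 relative to the median of all tested probes. Such scaling shifts all probes of an array by the same amount, so the choice of scaling could not change this relative value. With quantile normalization the members' median difference was -2.30 log2 relative to that median. Within the slide that held both genotypes, lbf1 plant 1 against wt plants 1 and 2, the median difference of the members was -2.43 log2. On the remaining slides, lbf1 plants 2 to 6 against wt plant 3, it was -2.29 log2. The members were spread over the array surface, with 49 to 62 of them in each of 4 sectors that held 24.5% to 25.5% of all probes.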

How the data were processed

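RNA from 6 lbf1 plants (7 arrays) and 3 wt plants (4 arrays) was labelled with Cy3 and hybridised to Agilent arrays, per the labels. The deposited scanner tables hold spot and background intensity in linear units, the percent of saturated pixels and flag codes, made with GenePix Pro 6.0.1.22 without normalization, per the file headers. The authors' deposited value table is on the log2 scale. On each array, 99.99% or more of its entries were log2 background-subtracted spot medians of the scanner table, shifted by an array-wide constant (tolerance 0.001). Every column has a median of 9.02, so scale and centring are known. Values are missing there for flagged spots.

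The members and lists were chosen with earlier results of these data known. The design assumed no other unit than intensity. Spot means were corrected for the local background median by normexp with an offset of 50 and then quantile-normalized. Spots flagged bad were set to missing and control spots removed. Arrays of a plant were averaged. A spot was called saturated if at least 50% of its pixels were. Probes detected in 3 or more plants, on each array of the plant (28267), were compared with limma 3.58.1 in R 4.3.3, and calls had a Benjamini-Hochberg adjusted p under 0.05. The fit was tested on simulated data. Arrays give no counts, and their number limits precision.

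The naming rule takes, on the recomputed values, the 3 greatest falls among members above background on all arrays and not saturated on all arrays of a genotype, the 2 brightest in wt, those with the largest and the smallest SD between lbf1 plants among members above background on all arrays, and, on the authors' values, the member and the separated probe nearest to the size limit. The rule also called for members above background on every wt array and on no lbf1 array, but 0 members met this. No gene list could be matched, because the tables give no gene names. Alternatives covered background correction, scaling, the filter, repeat arrays, left-out plants, slide, brightness, a replicate block and the size limit. Counting wt plants 1 and 2 as 1 plant and the pair of arrays with the brighter wt side were chosen after seeing the data.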

Additional observations from a re-analysis of the deposited data

Results flagged for a closer look

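The level of Lus10002073 in lbf1 plant 1 was 9.04 log2, and the nearest other lbf1 plant, plant 2, was at 7.63 log2. This plant lay farther from the other lbf1 plants than Dixon's critical value allows (a gap of 0.639 of the range, where 0.625 is the limit for 6 plants). It was the only one of 10 measures examined over the lbf1 plants that stood apart in this way, and chance alone marks about 1 in 20. Over all members, 13 of 223 (5.83%) had 1 lbf1 plant apart by the same measure, where 8.86% of the 20497 probes with a value on all arrays did.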

How the results depend on the processing

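The median difference of the members was below 0 under each alternative, which the choice of members fixes, and 1 of the 223 was no longer lower with brightness as a term. Without each plant in turn, the rule selected 212 to 249 probes, 166 to 188 members met it on the recomputed values, the median difference of the members was -2.37 to -2.24 log2, their median SD between lbf1 plants was 0.377 to 0.489 log2, and 3306 to 4425 probes were called lower by limma. The 0.377 log2 came without lbf1 plant 2. A size limit of -1.5 log2 selected 503 probes and one of -3 log2 selected 38, and on the recomputed values 25 members met the limit of -3 log2. With background subtraction in place of normexp, the members' median difference was -2.59 log2 and their median SD between lbf1 plants 0.57 log2. With scaling to spike-in probes, 48 members met the rule, their median difference was -1.62 log2, the median of lbf1 plant 2 over the lbf1 mean was 0.0636 log2, and limma called 1057 probes lower and 17356 higher. With brightness as a term the median difference was -1.79 log2 and 29 probes were called lower, and between the array of lbf1 plant 2 and the second array of wt plant 3 the median difference was -1.73 log2. Without the slide that held both genotypes 1979 probes were called lower. With a replicate block on the shared plant numbers 2141 were called lower, and the members' median difference was -2.23 log2. The numbers do not pair the plants (correlations of same-numbered deviations of 0.059, -0.092 and 0.083). The balance of calls over all probes turned with the scaling, with 4726 higher and 4388 lower after quantile normalization, 3536 and 6080 after scaling to the 75th percentile, and 6758 and 3136 on the authors' values. The causes of these shifts were not tested. The other 89 values recomputed for the main results moved by less than the spread between plants or, for counts, by less than 1.5 times. For the differences between repeat arrays, that spread was 0.2252 log2 and came from 2 plants only. It was larger than the 0.0673 log2 of lbf1 plant 1 itself, so little is read from those values.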
